A study of Mus musculus with 16 samples.

Results

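The clustered protocadherin genes are the Pcdha, Pcdhb and Pcdhg genes, which lie in 3 neighbouring clusters on mouse chromosome 18. All genes of that chromosome whose symbol begins with Pcdha, Pcdhb or Pcdhg in the GENCODE vM1 annotation of mm9 were taken. This gave 25 genes, of which 24 are protein-coding and Pcdhb20 is annotated as a pseudogene, beside 22367 protein-coding genes in the whole genome. The annotation holds 22 Pcdhb genes but joins nearly all Pcdha transcripts into 1 model, named Pcdha11, and all Pcdhg transcripts into 1 model, named Pcdhgc5. Only Pcdha3 has a Pcdha model of its own. The clusters were therefore also read exon by exon. An open reading frame of at least 2000 bp on the plus strand was found for 58 variable exons, made up of 14 Pcdha, 22 Pcdhb and 22 Pcdhg exons, and exons were named from their order in RefSeq. An exon is taken here as that frame, so its start is the first ATG and not a transcription start.

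Cells were sorted from the skin of wild-type CD1 x FVB mice labelled as male, with 15 to 20 mice used for chromatin. EA-HFSCs (CD34+ / α6-integrin+ bulge cells of early anagen, PD22 to PD25) are proliferative hair follicle stem cells, and LC-HFSCs (the same sort in late catagen, PD38 to PD44) are quiescent ones. Their counterparts, non-EA-HFSCs (PD22 to PD25) and the late non-LC-HFSCs (PD38 to PD44), are the CD34- / α6-integrin+ cells, which hold several kinds of epithelial cell. Mononucleosomes cut with MNase were precipitated with antibodies to H3K4me3, H3K27me3 or H3K9me3, and 12 peak lists resulted, 1 for each mark and population. A further 4 IgG samples served as background and have no list here. Replicates were pooled before peaks were called, so differences between the 4 populations could not be set against a spread of replicates and are given as values with no test. The lists do not give the number of reads behind them. Each peak carries a score, 10 times the negative log10 of its p-value, which ranks peaks within a list and does not measure height between lists. Age and stage of the hair cycle cannot be told apart in these groups, nor can more marked cells and more mark per cell.

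A protocadherin of the Pcdha or Pcdhg cluster is made from 1 variable exon, which has its own promoter and encodes the extracellular cadherin repeats and the membrane-spanning part, spliced to constant exons that the whole cluster shares. Pcdhb genes consist of their variable exon alone. In neurons each cell uses a few of the alternate exons, apparently at random, and the resulting surface proteins let a cell recognise its own branches, whereas the C-type exons (Pcdhac1, Pcdhac2, Pcdhgc3, Pcdhgc4 and Pcdhgc5) are controlled separately. H3K4me3 is found at active or poised promoters, H3K27me3 at genes held by Polycomb proteins, and H3K9me3 in heterochromatin, where it is known to cover protocadherin clusters in other tissues.

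On mm9 the Pcdha cluster spans chr18:37089939-37347311 (257373 bp), the Pcdhb cluster chr18:37424652-37681073 (256422 bp) and the Pcdhg cluster chr18:37833989-38001527 (167539 bp), each from its first annotated gene start to its last gene end. The annotated Pcdhg start lies at the exon Pcdhga3, so the exons Pcdhga1 and Pcdhga2 lie before this span but were counted among the exons. The lists differed greatly in length. They held 21482, 14718, 24498 and 18996 H3K4me3 peaks in EA-HFSCs, then LC-HFSCs, then non-EA-HFSCs and last non-LC-HFSCs, an order kept in all series of 4 values. The H3K27me3 lists held 25534, 1909, 17488 and 15273 peaks, and the H3K9me3 lists 42277, 1414, 17873 and 18236. The EA-HFSC list for H3K9me3 stood apart from the others, since its peaks lay on 42.7% of the H3K4me3 peaks of the same cells, against 0.0340% in LC-HFSCs, 0.665% in non-EA-HFSCs and 9.01% in non-LC-HFSCs. The H3K9me3 counts of exons, the exons shared between stages and the cover and peak numbers of the Pcdhg span are therefore also given without H3K9me3 peaks that overlap an H3K4me3 or H3K27me3 peak of the same population, which left 21908, 1393, 16972 and 14313 peaks. Other H3K9me3 values rest on all peaks of the lists.

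The identity of the sorted cells was read from H3K4me3 at marker genes. Cd34, the surface protein used in the sort, had an H3K4me3 peak within 3000 bp of its TSS in EA-HFSCs and LC-HFSCs and none in the CD34- populations. Of 8 bulge stem cell markers, 7, 7, 6 and 5 were marked in the 4 populations. The same window was marked at 60.4%, 53.9%, 59.6% and 56.6% of all protein-coding genes. Itga6, the integrin of the sort, was marked in none of the populations. Of 4 basal keratinocyte markers, Krt5, Krt14 and Itgb4 were marked in every population and Trp63 in none. Only the outermost annotated start of each gene was read, so a peak at another start of Itga6 or Trp63 would not be counted. All 3 markers of the sebaceous gland and upper follicle, none of 5 leukocyte markers and 1 of 3 endothelial markers (Kdr) were marked in each population. Among markers of neurons and Schwann cells, Syt1 carried an H3K4me3 peak in every population other than LC-HFSCs, and Sox10, Tubb3, Snap25 and Rbfox3 carried none in any list. Of 4 melanocyte markers 3, 3, 3 and 2 were marked and of 4 fibroblast markers 3, 3, 3 and 2. With so few genes, these counts are not set apart from the shares of all genes. H3K27me3 was also listed at Kdr in every population and at the fibroblast marker Pdgfra in every population other than LC-HFSCs. Whether such cells took part in any result below was not tested.

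Across the 3 clusters the Pcdhg alternate exons were the set most often marked with H3K9me3, which covered most of their stretch in non-EA-HFSCs (80.7%) and LC-HFSCs (52.9%). H3K4me3 was found at the C-type exons Pcdhac2, Pcdhgc3 and Pcdhgc4 in all 4 populations. It was also found at many Pcdhg alternate exons in every population other than LC-HFSCs, at shares near those of all genes. The Pcdha alternate exons held few peaks, and Pcdhb3 to Pcdhb9 held none at their starts. H3K27me3 was listed at Pcdhac2, at Pcdhg alternate exons and at the exon Pcdha11, and at no exon in LC-HFSCs.

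**Figure D1:**
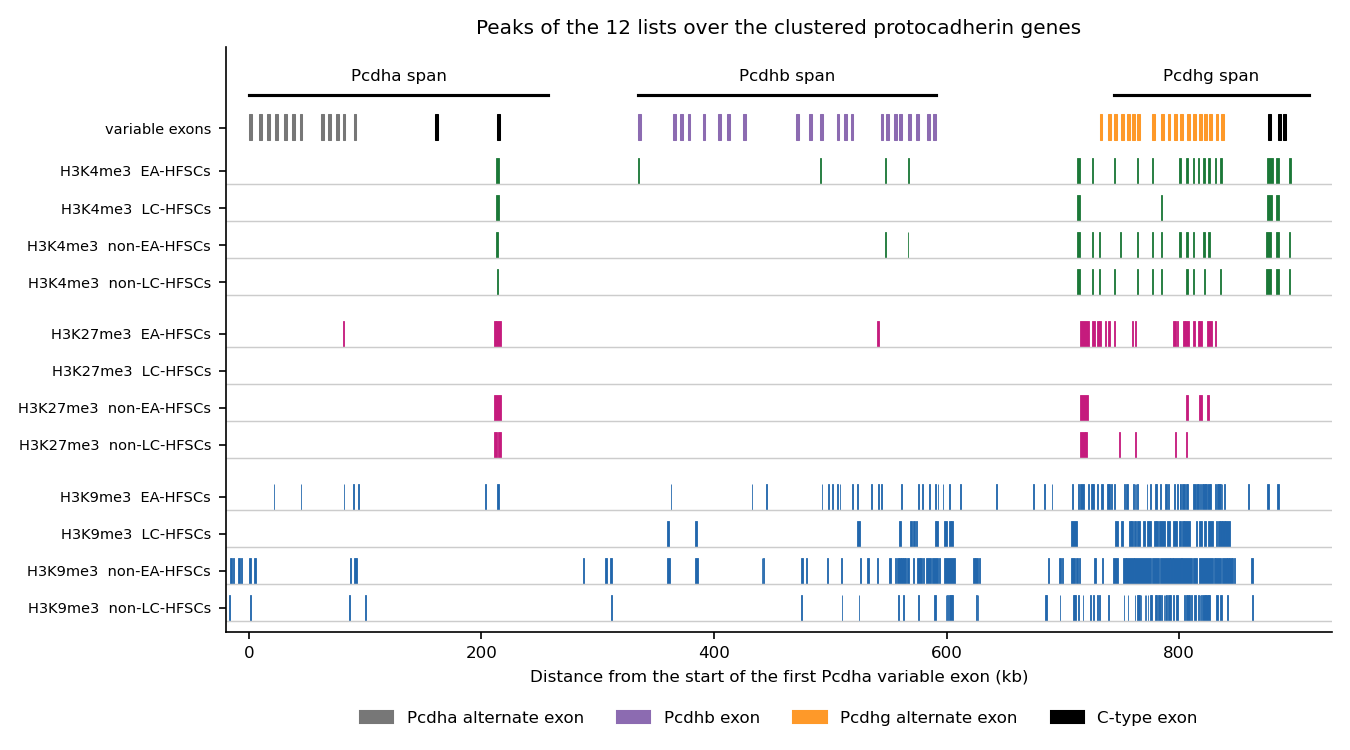
Map of the 3 clusters, with distance in kb from the start of the first Pcdha variable exon on the x axis and 1 line for each of the 12 peak lists, on which each box is a peak drawn to scale (thin edges keep narrow peaks visible). The 58 variable exons are shown above. H3K9me3 peaks crowd over the Pcdhg alternate exons in all 4 populations, and the LC-HFSC line for H3K27me3 is empty.

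Counted by annotated gene, few clustered protocadherins carried H3K4me3. A peak within 3000 bp of the gene start was found for 5, 0, 2 and 1 of the 25 genes, while 60.4%, 53.9%, 59.6% and 56.6% of all protein-coding genes had one. For H3K27me3 the counts were 2, 0, 0 and 0 genes, against 13.0%, 3.39%, 15.6% and 11.9% of all genes. H3K9me3 was listed at 11, 6, 12 and 5 of the 25 genes, against 45.2%, 0.295%, 2.80% and 11.6% of all genes. The share was thus 44.0% of the clustered genes in EA-HFSCs, near the level of all genes in that list, and 24.0% in LC-HFSCs (95% Wilson interval 11.5 to 43.4%, counting error only) and 48.0% in non-EA-HFSCs (30.0 to 66.5%), where H3K9me3 at gene starts was rare. The intervals take the genes as independent, although windows of close Pcdhb genes overlap and 1 peak can mark neighbouring genes. In the whole LC-HFSC list 66 protein-coding genes had an H3K9me3 peak at the start, 5 of them clustered protocadherins, with the pseudogene Pcdhb20 as the sixth member. Of the genes with H3K4me3 in EA-HFSCs, 0 of 5 also had it in LC-HFSCs, where 89.0% of all genes did, and 0 of 2 were shared by the non-HFSC populations, where 94.3% were. The 5 had EA-HFSC scores of 64.0 to 169, low in a list whose median was 612, and all genes were not matched to them by score. Neither of the genes with H3K27me3 in EA-HFSCs had it in LC-HFSCs (25.5% of all genes), and none was marked in a non-HFSC population, where 70.9% of all genes were shared. For H3K9me3, 5 of 11 genes were shared by EA-HFSCs and LC-HFSCs (45.5%, against 0.425% of all genes), and 5 of 12 by the non-HFSC populations (41.7%, against 39.0%). These counts depend on the settings. With a window of 1000 bp, H3K9me3 was listed at 3, 2, 7 and 2 genes, with 0 shared by EA-HFSCs and LC-HFSCs and 2 by the non-HFSC populations. EA-HFSCs and LC-HFSCs shared 2 genes when peaks scoring under 50 were left out, 0 when those under 100 were, and 0 in lists of equal length. H3K4me3 and H3K27me3 met at 1, 0, 0 and 0 genes, the 1 being the joined Pcdhg model, where 7.90%, 1.01%, 9.48% and 5.63% of all genes had both. H3K4me3 and H3K9me3 met at 3, 0, 1 and 0 genes, against 40.8%, 0.0313%, 1.40% and 9.31% of all genes. No peak of any list lay within 3000 bp of the start of Pcdha3 or of Pcdhb3 to Pcdhb9.

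Counted by variable exon, with a window of 1000 bp on either side of the exon start so that no windows overlapped, H3K4me3 was found at 18, 4, 15 and 12 of the 58 exons. A window of that size around the annotated gene start, and not around an ATG, held an H3K4me3 peak at 58.7%, 52.5%, 57.7% and 54.9% of all protein-coding genes. H3K27me3 was found at 12, 0, 4 and 3 exons, against 10.7%, 2.95%, 13.6% and 10.2% of genes, and H3K9me3 at 24, 16, 23 and 17 exons, against 41.2%, 0.148%, 0.948% and 8.61% of genes. Without H3K9me3 peaks under the other marks, 11, 15, 13 and 13 exons kept H3K9me3, so that the order of EA-HFSCs and LC-HFSCs turned. Between stages, 3 of the 18 exons with H3K4me3 in EA-HFSCs also had it in LC-HFSCs (16.7%), where 89.2% of all genes did. These 3 were C-type exons, with EA-HFSC scores of 843 to 2100. The marked Pcdhg alternate and Pcdhb exons had median scores of 86.0 and 85.8, low in a list whose median was 612. The genes were not matched to the exons by score, so this contrast is not set apart from low scores. Between the non-HFSC populations it was 10 of 15 exons (66.7%), against 94.6% of all genes. None of the 12 exons with H3K27me3 in EA-HFSCs had it in LC-HFSCs, against 27.1% of genes, and 2 of 4 had it in both non-HFSC populations, against 70.7%. For H3K9me3, 12 of the 24 exons of EA-HFSCs also had it in LC-HFSCs (50.0%), against 0.174% of genes, and 15 of the 23 exons of non-EA-HFSCs had it in non-LC-HFSCs (65.2%), against 32.1%. Without H3K9me3 peaks under the other marks, 3 of 11 and 5 of 13 exons were shared. In all, 21 of the 58 exons had no peak of any mark within 1000 bp of their start in any list.

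**Figure D2:**
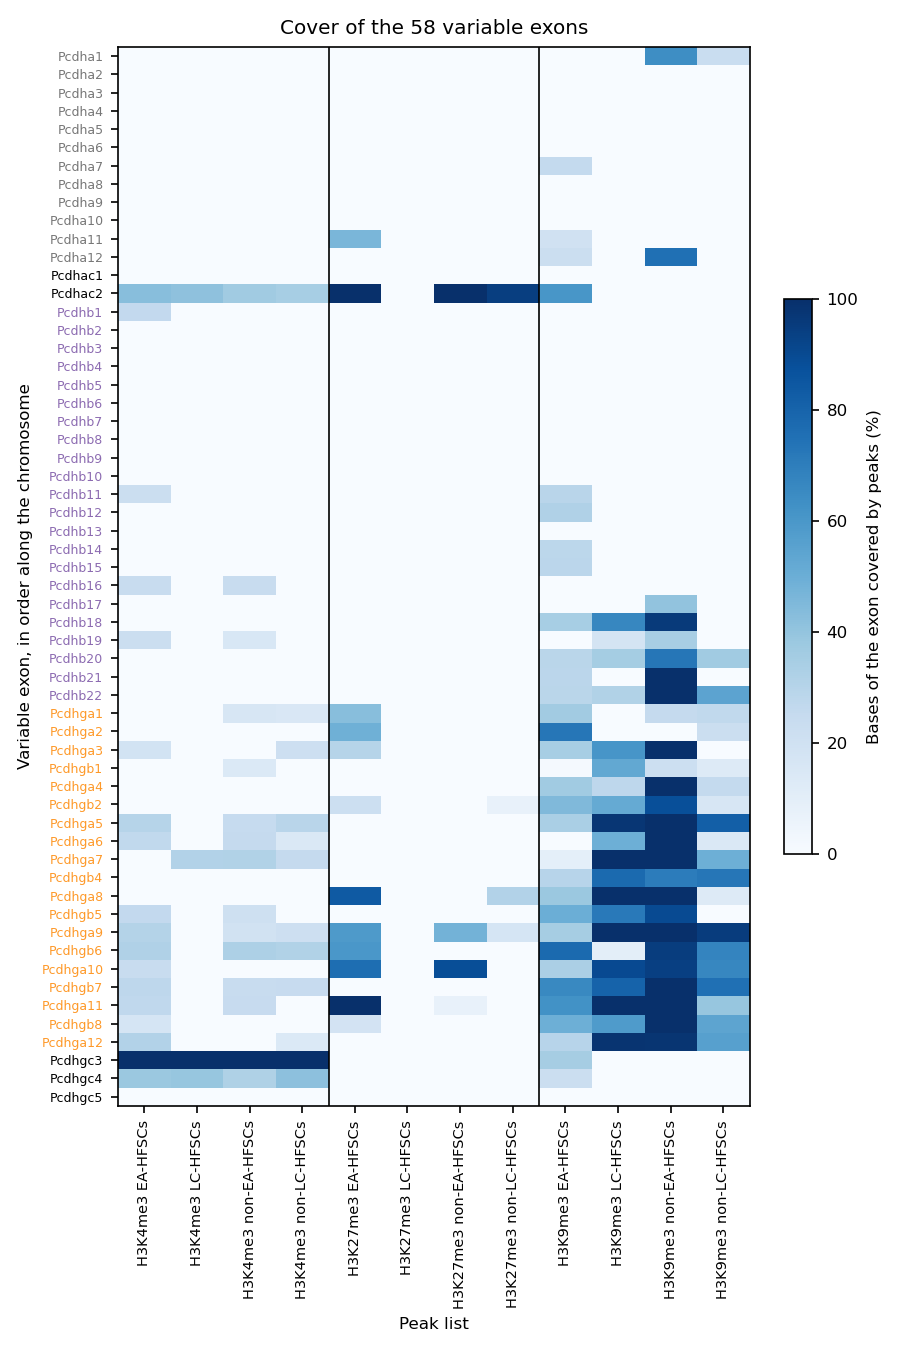
Percent of the bases of each of the 58 variable exons (y axis, in order along the chromosome, names coloured grey for Pcdha alternate, purple for Pcdhb, orange for Pcdhg alternate and black for C-type exons) covered by peaks of each of the 12 lists (x axis), with darker blue for more cover. Pcdhgc3 is covered over 100% of its length by H3K4me3 in all 4 lists, and the Pcdhg alternate exons form a block of H3K9me3.

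The C-type exons Pcdhgc3 and Pcdhgc4 carried the highest-scoring H3K4me3 peaks of the clusters in every list. Pcdhgc3, the first C-type exon of the Pcdhg cluster, starts at chr18:37966202 and had H3K4me3 peaks with scores of 2100, 230, 3100 and 3094. Each of these peaks covered the whole exon. The non-EA-HFSC score of 3100 is shared by many peaks of that list, among them those at Taf7 and Ctcf, so no exact rank is given. Pcdhgc4 had H3K4me3 scores of 857, 249, 2294 and 1890, and its peaks covered 37.9%, 39.2%, 32.3% and 41.5% of the exon. Pcdhac2, the last variable exon of the Pcdha cluster, had H3K4me3 scores of 843, 85.9, 472 and 264. It was the only Pcdha exon with H3K4me3 in any list. H3K4me3 was thus listed at these 3 exons in every population, LC-HFSCs included.

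The other C-type exons were bare. Pcdhac1 and Pcdhgc5 had no peak of any mark within 1000 bp of their start in any list. In the genome sequence, the observed over expected CpG ratio of the 1000 bp before the start was 0.693 at Pcdhac2, 0.826 at Pcdhgc3 and 0.676 at Pcdhgc4. It was 0.463 at Pcdhac1 and 0.163 at Pcdhgc5, so the 2 bare exons were unlike, and Pcdhac1 lay above the median of the Pcdhg alternate exons (0.425). An H3K4me3 peak in the Pcdhg constant region beyond Pcdhgc5 was listed in EA-HFSCs (chr18:37984237-37986501, score 223), non-EA-HFSCs (score 93.4) and non-LC-HFSCs (score 58.5), and not in LC-HFSCs.

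H3K27me3 was found at 1 C-type exon. At Pcdhac2 its scores were 189 in EA-HFSCs, 358 in non-EA-HFSCs and 189 in non-LC-HFSCs, with no peak in LC-HFSCs. The peaks covered 100%, 100% and 94.4% of the exon. Pcdhac2 therefore carried H3K4me3 and H3K27me3 together in those 3 populations and H3K4me3 without H3K27me3 in LC-HFSCs. With H3K27me3 lists cut to 1909 peaks each, no population kept H3K27me3 there, so this difference is not set apart from list length. H3K9me3 was listed at C-type exons only in EA-HFSCs, with scores of 108 at Pcdhac2, 138 at Pcdhgc3 and 48.7 at Pcdhgc4, all of which lay on H3K4me3 exons.

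The 19 Pcdhg alternate exons, which belong to the A and B subfamilies, occupy a stretch of 106608 bp and were the part of the clusters with the most H3K9me3. H3K4me3 was found at 11, 1, 10 and 9 of them. Outside LC-HFSCs this is near the share of all genes in the same window, given above, and in LC-HFSCs it is far below it. The scores ran from 51.1 at Pcdhgb8 to 258 at Pcdhga5 in EA-HFSCs, from 72.8 at Pcdhgb1 to 300 at Pcdhgb7 in non-EA-HFSCs and from 50.5 at Pcdhga3 to 276 at Pcdhgb7 in non-LC-HFSCs. The 1 exon marked in LC-HFSCs was Pcdhga7, with a score of 55.8, and Pcdhga7 had no H3K4me3 peak in EA-HFSCs but scores of 183 and 104 in the non-HFSC populations. Pcdhga5, Pcdhga6, Pcdhga7, Pcdhga9, Pcdhgb6 and Pcdhgb7 were marked in 3 populations, and no alternate exon was marked in all 4. Pcdhga2, Pcdhga4, Pcdhgb2, Pcdhgb4 and Pcdhga8 were marked in none. Pcdhga5 had H3K4me3 scores of 258 in EA-HFSCs, 241 in non-EA-HFSCs and 118 in non-LC-HFSCs.

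These H3K4me3 peaks were narrow and sat on the exon start. Their median width was 1140 bp in EA-HFSCs, 1000 bp in non-EA-HFSCs and 917 bp in non-LC-HFSCs, and the LC-HFSC peak was 1116 bp wide. Peaks at the C-type exons had medians of 2746, 2573, 2734 and 2657 bp, and the narrowest of them (1636 bp) was wider than the widest at an alternate exon (1578 bp), and the medians of the whole lists were 2279, 2308, 1671 and 1793 bp. With lists cut to the 14718 highest-scoring peaks each, 2, 1, 3 and 1 Pcdhg alternate exons kept H3K4me3, so that most of the difference to LC-HFSCs lay in peaks that rank low in the longer lists. With a score of at least 100 the counts were 5, 0, 8 and 3.

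H3K27me3 was found at 10, 0, 3 and 2 of the 19 exons. Outside EA-HFSCs these counts are near the share of all genes in the same window, and in EA-HFSCs the count is above it. In EA-HFSCs its scores ran from 42.2 at Pcdhga2 to 184 at Pcdhga1. Peaks covered 100% of Pcdhga11 and 83.7% of Pcdhga8 there. In non-EA-HFSCs the marked exons were Pcdhga9, Pcdhga10 and Pcdhga11, with Pcdhga10 highest at 65.5, and in non-LC-HFSCs they were Pcdhga8 and Pcdhga9, with scores of 43.7 and 53.3. When each list was cut to its 1909 highest-scoring peaks, none of the 19 exons kept H3K27me3 in any population, so the absence in LC-HFSCs is not set apart from the length of that list.

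H3K9me3 was found at 15, 14, 16 and 15 of the 19 exons, and the LC-HFSC count was reached by a list of 1414 peaks. With all lists cut to 1414 peaks, 1, 14, 14 and 9 exons kept H3K9me3. Without peaks under the other marks, 6, 13, 7 and 11 exons kept it. In non-EA-HFSCs that setting leaves out whole peaks, several kb wide, that touch an H3K4me3 or H3K27me3 peak at any point. Pcdhga5, Pcdhga7, Pcdhgb4, Pcdhga8, Pcdhga9, Pcdhga10, Pcdhgb7, Pcdhga11, Pcdhgb8 and Pcdhga12 had H3K9me3 in all 4 populations, which is 10 of the 19. Every one of the 19 exons had a peak of at least 1 mark in at least 1 list.

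The highest-scoring H3K9me3 peak of the clusters lay in non-EA-HFSCs at chr18:37906988-37919436. It was 12449 bp wide, covered the starts of Pcdhgb7 and Pcdhga11, lay within 1000 bp of the start of Pcdhga10, and with a score of 1627 ranked 4 of 17873 in its list. The widest was chr18:37851529-37866175 in the same population, 14647 bp long from the end of Pcdhgb2 over the whole of Pcdhga5. In LC-HFSCs the highest score was 240 at Pcdhga9 (chr18:37894211-37899801, 5591 bp), which ranked 15 of 1414. The highest-scoring EA-HFSC peak of the cluster had a score of 393 and a rank of 507 of 42277, and that of non-LC-HFSCs, at Pcdhga12, a score of 168 and a rank of 176 of 18236. H3K9me3 peaks over the Pcdhg cluster were wide in LC-HFSCs and non-EA-HFSCs (mean 2465 and 4779 bp) and short in EA-HFSCs and non-LC-HFSCs (873 and 863 bp). The whole lists had mean widths of 900, 1947, 1344 and 643 bp, so that the EA-HFSC peaks were of the width usual in their list and LC-HFSC peaks were wide throughout the genome.

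**Figure D3:**
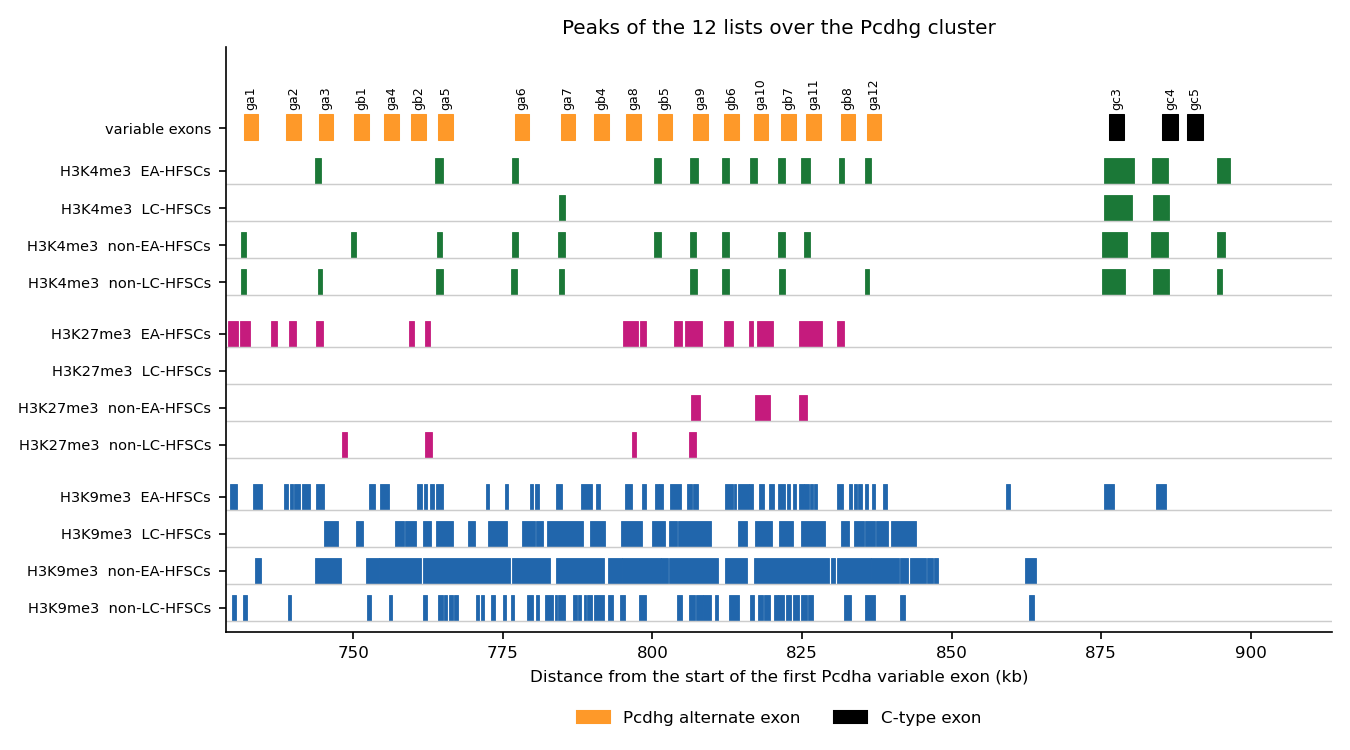
Map of the Pcdhg cluster, with distance in kb from the start of the first Pcdha variable exon on the x axis, the exon names above (g for Pcdhg) and each peak of the 12 lists as a box drawn to scale. From Pcdhgc3 onwards H3K9me3 covers 0% in every population other than EA-HFSCs, and the wide H3K4me3 peaks lie at Pcdhgc3 and Pcdhgc4.

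Some alternate exons showed the same mark in all lists with different extent. At Pcdhga9 H3K9me3 scores were 83.5, 240, 453 and 117 and the peaks covered 34.8%, 100%, 100% and 95.2% of the exon. At Pcdhga11 they were 84.0, 184, 1627 and 105, with 62.2%, 100%, 100% and 39.1% covered. Pcdhga12, the last alternate exon, had scores of 108, 69.4, 685 and 168 and a cover of 29.5%, 98.1%, 97.7% and 56.1%. Cover of these exons was largest in LC-HFSCs and non-EA-HFSCs. Other exons did not follow this order. H3K9me3 covered 72.8%, 0%, 0% and 22.4% of Pcdhga2 and 77.4%, 9.91%, 94.7% and 67.5% of Pcdhgb6. Pcdhga1, the first alternate exon, had an H3K9me3 peak near its start only in non-LC-HFSCs (score 65.6). It had H3K27me3 in EA-HFSCs (score 184) and H3K4me3 in both non-HFSC populations (scores 76.9 and 76.0).

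H3K4me3 and H3K9me3 were listed together at 10, 1, 8 and 8 of the 19 Pcdhg alternate exons, while 38.1%, 0%, 0.264% and 7.54% of all protein-coding genes had both within 1000 bp of the start. H3K9me3 stood without H3K4me3 at 5, 13, 8 and 7 exons, against 3.08%, 0.148%, 0.684% and 1.07% of all genes. H3K4me3 without H3K9me3 was found at Pcdhga6 in EA-HFSCs, at Pcdhga1 and Pcdhgb1 in non-EA-HFSCs and at Pcdhga3 in non-LC-HFSCs, a state of 20.5%, 52.5%, 57.4% and 47.4% of all genes. All 3 marks were listed at 6, 0, 2 and 1 exons, against 4.57%, 0%, 0.107% and 0.335% of all genes, and these were all the alternate exons with H3K4me3 and H3K27me3 together. Over the 58 exons, H3K4me3 and H3K27me3 occurred together at 7, 0, 3 and 2, against 6.30%, 0.769%, 7.89% and 4.27% of all genes. Since the cells of a population were pooled, marks on the same exon may lie in different cells or on different alleles, which was not tested.

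Along the alternate exons, H3K9me3 was lowest shortly before the exon start. The fewest exons were covered 800 bp before the start in EA-HFSCs (3 of 19), 1150 bp before in LC-HFSCs (4 of 19), 900 bp before in non-EA-HFSCs (10 of 19) and 1300 bp before in non-LC-HFSCs (3 of 19). At the start itself 12, 11, 14 and 9 exons were covered. In LC-HFSCs and non-EA-HFSCs the most exons, 14 and 18, were covered 2350 bp after the start, close to the exon end, since the median alternate exon is 2442 bp long. In EA-HFSCs the most exons, 13, were covered 150 bp after the start and in non-LC-HFSCs, 11, at 2500 bp before it. Exon bases were covered over 39.1%, 64.5%, 83.3% and 41.6% and the bases between exons over 34.2%, 44.0%, 78.7% and 30.4%. For H3K4me3 the exon bases were covered over 15.3%, 1.64%, 12.4% and 10.4%, and the bases between over 9.50%, 0.592%, 6.38% and 4.77%.

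**Figure D4:**
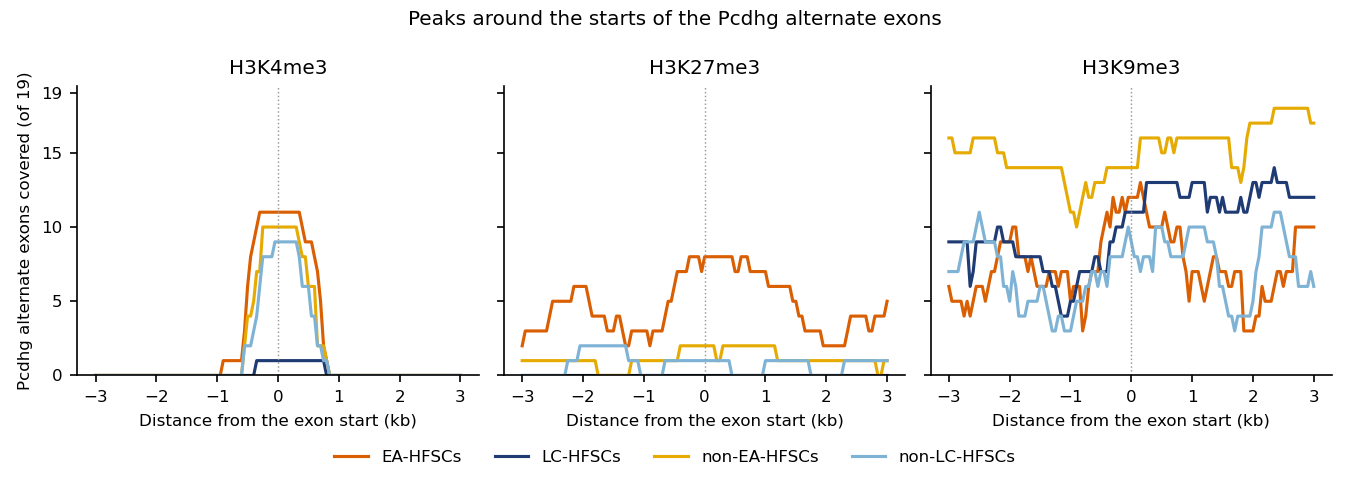
Number of the 19 Pcdhg alternate exons (y axis) covered by peaks at each distance in kb from the exon start (x axis, in the direction of transcription), with 1 panel per mark and 1 line per population. H3K4me3 peaks lie around the exon start, where 11, 1, 10 and 9 exons are covered, and H3K9me3 dips before the start.

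H3K9me3 covered 36.3%, 52.9%, 80.7% and 35.3% of the stretch of alternate exons, and the bases covered in 1 list can be set beside these shares. Of the LC-HFSC bases, 95.3% were also covered in non-EA-HFSCs, 36.5% in EA-HFSCs and 44.1% in non-LC-HFSCs. Of the EA-HFSC bases 86.6%, and of the non-LC-HFSC bases 92.3%, were covered in non-EA-HFSCs, beside its share of 80.7%. Of the EA-HFSC bases 53.2% were covered in LC-HFSCs, so that the overlaps between EA-HFSCs and LC-HFSCs were near the shares of the stretch that each list covers. In the other direction 62.5% of the non-EA-HFSC bases were covered in LC-HFSCs, 39.0% in EA-HFSCs and 40.3% in non-LC-HFSCs. All 4 lists covered 10.5% of the stretch and no list covered 10.8%.

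The share of each cluster under H3K9me3 followed the order Pcdhg, Pcdhb, Pcdha in every list. The Pcdhg span was covered over 22.7%, 36.8%, 56.8% and 22.7%, the Pcdhb span over 4.68%, 4.79%, 15.0% and 2.24%, and the Pcdha span over 2.05%, 0%, 2.62% and 0.744%. The gap-free genome was covered over 1.48%, 0.103%, 0.920% and 0.455%, so that the cover of the Pcdhg span was 15.3, 359, 61.7 and 49.8 times that of the genome. From Pcdhgc3 onwards it covered 7.10% in EA-HFSCs and 0% in the other 3 populations. Without H3K9me3 peaks under the other marks the Pcdhg span was covered over 8.40%, 33.3%, 21.1% and 17.7%, and LC-HFSCs then had the highest cover. The peaks over it were then 19, 24, 13 and 36, in place of 44, 25, 20 and 44.

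LC-HFSCs differed most from the genome in this respect. The 3 clusters make up 0.0266% of the gap-free genome and held 2.33% of the LC-HFSC H3K9me3 peaks, against 0.163%, 0.274% and 0.296% in EA-HFSCs and the 2 non-HFSC populations. These shares depend on the length of the lists, and among the 1414 highest-scoring peaks of each list 2, 33, 14 and 18 lay in the clusters. From the first Pcdha start to the last Pcdhg end there were 38 of the 1414 LC-HFSC peaks (2.69%, 95% Wilson interval 1.96 to 3.67%). These were 48.7% of the 78 LC-HFSC H3K9me3 peaks of chromosome 18, where the other lists had 5.67%, 9.13% and 10.3% of theirs. Among 26537 windows of 100 kb, the best Pcdhg window ranked 45, 1, 3 and 3 by H3K9me3 cover. Counted by gene body, the joined Pcdhg model held more LC-HFSC H3K9me3 peaks than any other gene, 25 against 7 over Zfp942 and 6 over Ttn.

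The number of H3K9me3 peaks and the bases they cover gave different orders. Over the 3 spans there were 69, 33, 49 and 54 H3K9me3 peaks, which covered 8.12%, 10.8%, 20.6% and 6.70% of the bases. EA-HFSCs thus had more peaks than LC-HFSCs but less cover. With lists of 1414 peaks each, the numbers were 2, 33, 14 and 18 and the cover 0.441%, 10.8%, 12.5% and 3.18%, so that the order of EA-HFSCs and LC-HFSCs turned for the number of peaks and was kept for the cover. From EA-HFSCs to LC-HFSCs the cover was higher by 2.68 percentage points, and from non-EA-HFSCs to non-LC-HFSCs it dropped by 13.9.

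**Figure D5:**
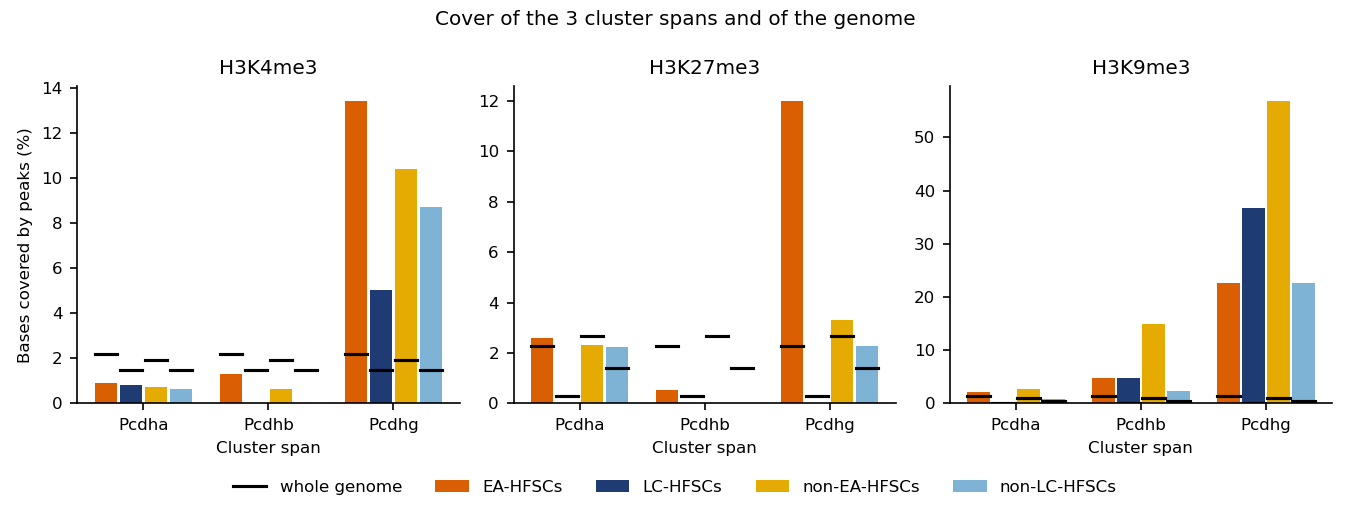
Percent of the bases of the Pcdha, Pcdhb and Pcdhg spans (x axis) covered by peaks (y axis, which starts at 0 and differs between panels), with 1 panel per mark and 1 bar per population. Black lines give the cover of the gap-free genome by the same list, and the Pcdhg bars for H3K9me3 reach 22.7%, 36.8%, 56.8% and 22.7%.

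H3K4me3 covered 13.4%, 5.01%, 10.4% and 8.72% of the Pcdhg span, 1.30%, 0%, 0.651% and 0% of the Pcdhb span and 0.900%, 0.817%, 0.716% and 0.636% of the Pcdha span, the last from the single peak at Pcdhac2. The genome was covered over 2.19%, 1.47%, 1.91% and 1.46%. Over the 3 spans 19, 4, 15 and 12 H3K4me3 peaks were listed. H3K27me3 covered 12.0%, 0%, 3.31% and 2.27% of the Pcdhg span, with 12, 0, 3 and 4 peaks, and 2.60%, 0%, 2.32% and 2.24% of the Pcdha span, beside a genome cover of 2.27%, 0.289%, 2.67% and 1.40%. The Pcdhg cover was thus 5.27 times that of the genome in EA-HFSCs but 1.24 and 1.62 times in the non-HFSC populations, and the Pcdha cover was near that of the genome, at 1.15, 0.870 and 1.60 times outside LC-HFSCs. The Pcdhb span had 1 H3K27me3 peak, in EA-HFSCs, with a score of 52.1 upstream of Pcdhb15.

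The Pcdhb genes, which have no constant exons, were marked at few starts. H3K4me3 lay within 1000 bp of the exon start of 4, 0, 2 and 0 of the 22. Around the gene start, 58.7%, 52.5%, 57.7% and 54.9% of all genes had it in a window of that size. Pcdhb1, the first of the cluster and apart from the rest, had the highest H3K4me3 score of the Pcdhb genes, 169 in EA-HFSCs, with no peak of any mark in the other 3 populations. Pcdhb16 had H3K4me3 scores of 96.5 in EA-HFSCs and 75.6 in non-EA-HFSCs, and Pcdhb19 of 64.0 and 61.0. Pcdhb11 was marked in EA-HFSCs alone, with 75.1. In LC-HFSCs and non-LC-HFSCs no Pcdhb gene had H3K4me3.

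Within 1000 bp of the exon start H3K9me3 was listed at 2, 2, 5 and 1 of the 22 Pcdhb genes. In a window of that size around the gene start it was listed at 41.2%, 0.148%, 0.948% and 8.61% of all genes. The same count of 2 thus lies below the level of all genes in EA-HFSCs and above it in LC-HFSCs. In EA-HFSCs the marked genes were Pcdhb12 and Pcdhb15, with scores of 60.5 and 46.5. In the other 3 populations they lay among Pcdhb18 to Pcdhb22, the genes nearest to Pcdhg. Pcdhb22, the last gene, had H3K9me3 scores of 69.5, 40.9, 312 and 93.8 within 3000 bp of the gene start, and 28.9%, 31.6%, 100% and 54.4% of its exon were covered. Pcdhb18 had scores of 67.6, 53.6, 172 and 50.9 in the same window, and Pcdhb20, the annotated pseudogene, 42.5, 53.8, 141 and 75.7. These 3 genes had H3K9me3 in all 4 lists, and in non-EA-HFSCs 95.8% of the Pcdhb18 exon was covered. Pcdhb21 had peaks in EA-HFSCs (69.5) and non-EA-HFSCs (265) only. Pcdhb2 lies far from that end and had H3K9me3 within 3000 bp in EA-HFSCs (41.1), LC-HFSCs (69.2) and non-EA-HFSCs (132), and its LC-HFSC peak was the highest-scoring one of that list over the Pcdhb span. In non-LC-HFSCs the highest score of the span (96.1) belonged to a peak with no exon start within 1000 bp, chr18:37564360-37565640. Of the 22 exons, 12 had no peak within 1000 bp of the start in any list, Pcdhb2 to Pcdhb10, Pcdhb13, Pcdhb14 and Pcdhb17.

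None of the 12 Pcdha alternate exons had H3K4me3 in any list, and 7 of them (Pcdha2, Pcdha3, Pcdha5, Pcdha6, Pcdha8, Pcdha9 and Pcdha10) had no peak of any mark near the start. The exon Pcdha11 had an H3K27me3 peak in EA-HFSCs (score 56.6), the only 1 of the set. H3K9me3 was found at 4, 0, 2 and 1 exons, against 41.2%, 0.148%, 0.948% and 8.61% of all genes around their gene start. In EA-HFSCs the marked exons were Pcdha4, Pcdha7, Pcdha11 and Pcdha12, with scores of 44.5 to 59.8. Pcdha1, the first exon, had H3K9me3 scores of 44.5 in non-EA-HFSCs and 48.4 in non-LC-HFSCs, and Pcdha12, the last, of 59.8 in EA-HFSCs and 118 in non-EA-HFSCs. The authors removed alignments of low quality, which those to repeated sequence tend to be, and 11.4% of the 70-bp stretches of these exons occur more than once in the genome, against 2.81% in Pcdhb exons, 3.38% in Pcdhg alternate exons and 0% in C-type exons. The part of such stretches in the low number of Pcdha peaks was not tested.

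The sets differed in base composition. The median observed over expected CpG ratio of the exon was 0.675 in Pcdha alternate exons, 0.438 in Pcdhb exons, 0.566 in Pcdhg alternate exons and 0.441 in C-type exons. In the first 2000 bp of the exon the medians were 0.722, 0.459, 0.595 and 0.462, and 0.404 over all protein-coding genes, read from the gene start. The set with the highest ratio within the exon, the Pcdha alternate exons, had no H3K4me3. In the 1000 bp before the start the medians were 0.442, 0.333, 0.425 and 0.676, highest at the C-type exons. Over all 58 exons the ratio before the start was higher with H3K4me3 than without it in EA-HFSCs (0.438 and 0.379), LC-HFSCs (0.685 and 0.371, with 4 marked exons) and non-EA-HFSCs (0.425 and 0.384) and lower in non-LC-HFSCs (0.344 and 0.408). Within the Pcdhg alternate exons the median ratio of the exon itself was higher in exons with H3K4me3 in EA-HFSCs (0.607 for 11, against 0.488 for the 8 without). It was lower in marked exons in non-EA-HFSCs (0.528 for 10, against 0.607 for 9) and in non-LC-HFSCs (0.465 for 9, against 0.600 for 10). The 1 exon marked in LC-HFSCs had 0.397, against 0.580 for the other 18. The letters CGCT, the core of the conserved element in protocadherin promoters, were found on either strand within 300 bp before the start of all 58 exons (100%), against 63.6% of all protein-coding genes before their gene start. The letters GGNGGCAG, part of the site that the insulator protein CTCF binds, were found in 2 of the 58 windows (3.45%) and in 12.3% of those of all genes. Only exact matches in these windows were counted, so sites with other letters or within the exon were not read. Whether the 2 strings of letters mark separate sites was not tested. A match, or the lack of one, is a description of the sequence only and not of binding.

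The genes beside and between the clusters carried several patterns. Taf7, a subunit of the general transcription factor TFIID between Pcdhb and Pcdhg, had H3K4me3 scores of 1613, 153, 3100 and 2660, H3K27me3 scores of 853, 427 and 449 in the populations other than LC-HFSCs, and H3K9me3 scores of 437, 191, 124 and 75.9. Slc25a2, a mitochondrial carrier whose start lies close to it, had H3K9me3 scores of 80.3, 191, 502 and 112 and no H3K4me3 peak. Their windows overlap, so that a peak may be counted for both genes. H3K9me3 covered 13.2%, 8.65%, 19.8% and 8.09% of the stretch between the Pcdhb and Pcdhg spans, which takes in Pcdhga1 and Pcdhga2. In every list this was more than over the Pcdhb span. In that stretch 3222401L13Rik had H3K4me3 (171, 137 and 143) and H3K9me3 (55.7, 63.2 and 52.4) outside LC-HFSCs. It also had H3K27me3 in EA-HFSCs alone, with the score that was listed at Taf7 (853). Gm10545, within Pcdha, had H3K9me3 in EA-HFSCs (59.8) and non-EA-HFSCs (118). On the outer sides Hars2, Zmat2, Diap1, Hdac3 and Rell2 had H3K4me3 in all 4 populations and no H3K27me3 in any. All 5 had H3K9me3 within 3000 bp of the start in EA-HFSCs, with scores from 76.5 at Zmat2 to 186 at Diap1. In non-LC-HFSCs Hars2 (40.5) and Diap1 (53.5) had it, and in LC-HFSCs and non-EA-HFSCs none of the 5. The sixth outer gene, Gm6756, lies just before the Pcdha cluster and had no H3K4me3 in any list and H3K9me3 in non-EA-HFSCs (score 59.2). H3K9me3 also covered 2.20%, 2.75%, 23.7% and 2.32% of the 100 kb before the Pcdha cluster, with 3, 1, 13 and 4 peaks, so that in non-EA-HFSCs this flank was covered more than the Pcdhb span (15.0%). Of the 100 kb after the Pcdhg cluster 2.03%, 0%, 0% and 0.610% were covered.

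The non-clustered protocadherins are single genes of the same family elsewhere in the genome. Of 13 listed, 12 were found in the annotation. H3K4me3 lay within 3000 bp of the TSS of 10, 8, 9 and 8 of these, H3K27me3 at 7, 4, 10 and 7 and H3K9me3 at 8, 0, 0 and 3. The shares of all genes in this window are given above with the counts of the 25 clustered genes. Pcdh7 had H3K4me3 scores of 3100, 1909, 3100 and 3100 and no H3K27me3 peak, and Pcdh10 had H3K27me3 scores of 1890, 203, 1992 and 1114. Of the 7 with H3K27me3 in EA-HFSCs, 4 also had it in LC-HFSCs, as did 0 of the 2 such clustered genes. In the LC-HFSC list 3.39% of all genes had H3K27me3, so that 0 of 25 clustered genes is near the level of all genes. No non-clustered gene had H3K9me3 in LC-HFSCs, where 6 clustered genes had it. H3K9me3 at gene starts was rare in that list, so that 0 of 12 is near the level of all genes. Of 6 classical cadherins, which join cells to each other, 5, 4, 5 and 3 had H3K4me3 and 4, 0, 0 and 0 had H3K9me3. Of 16 genes for proteins known to act on the clusters, 15 had H3K4me3 in every population. Among these 15 were Ctcf, the cohesin subunit Rad21 and the H3K9 methyltransferase Setdb1. Stag1 had it in none at its outermost annotated start, the only start read. H3K9me3 was listed at 13, 0, 0 and 1 of these 16. Outside EA-HFSCs these counts, and the 0 of 6 cadherins, are near the level of all genes in each list. In EA-HFSCs 13 of 16 lies above it.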

How the data were processed

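The authors aligned single-end reads trimmed with Trimmomatic 0.22 to 70 bp to mm9 with Bowtie2, removed alignments of low quality, pooled the replicates and ran MACS 1.4 on each mark, with IgG of that population as background. The deposited lists give each peak's position and a score, which the authors' peak caller derives from its p-value (10 times the negative log10), with a minimum of 50 for H3K4me3 and 40 for the other marks. According to the methods, H3K4me3 peaks were nearly saturated in every population, whereas H3K27me3 and H3K9me3 peaks were not. The lists do not give depth. The methods give read numbers as ranges that differ between populations, and those of LC-HFSCs are the larger when set beside EA-HFSCs.

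Positions were made 1-based. A gene or exon counted as marked when a peak shared at least 1 bp with the window around its start (3000 bp for genes, 1000 bp for exons). The start was the outermost annotated start for genes and the first ATG of the frame for exons. Cover is the union of peaks over the gap-free span. Frames for 2 further stretches of the Pcdhb span that lie in no named gene were left out. Spacing between exons differed from RefSeq (GRCm38.p6, names only) by at most 291 bp for Pcdha and 459 bp for Pcdhg, and 22 of 22 Pcdhb names equalled the annotation. Intervals are 95% Wilson intervals for counting error. Work was done with Python 3.11.15, numpy 2.4.6, scipy 1.17.1, pysam 0.24.0 and matplotlib 3.10.9, and the interval, frame and repeat steps were tested on simulated data, with 300 of 300 overlap queries and 100 of 100 planted frames recovered. Members, gene lists and named genes (the C-type exons, the first and last exon of each cluster, the highest-scoring of each list, small exceptions and neighbours) were chosen with earlier results of these data known, and other names were chosen after their values were seen. The reading by variable exon was added after the files had been seen. Alternatives were minimum scores of 50 and 100, equal list lengths, other windows and starts, merged peaks, the Pcdhg span from its first exon, and H3K9me3 peaks under no other mark. A marker gene of the neuron and Schwann cell list is not reported here.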

Additional observations from a re-analysis of the deposited data

Results flagged for a closer look

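Several differences between stages ran in opposite directions in HFSCs and non-HFSCs over the clusters. None of these was tested, since each population has 1 list. From early anagen to late catagen, H3K9me3 cover of the Pcdhg span was higher by 14.1 percentage points in HFSCs (22.7% to 36.8%) and lower in non-HFSCs (56.8% to 22.7%), a gap between the changes of 48.2 points. Without H3K9me3 peaks under the other marks the directions were kept, with 8.40% to 33.3% in HFSCs and a smaller drop, from 21.1% to 17.7%, in non-HFSCs. For the Pcdhb span the changes differed by 12.9 points (4.68% to 4.79%, and 15.0% to 2.24%), and for the 3 spans together by 16.6 points (8.12% to 10.8%, and 20.6% to 6.70%). Without peaks under the other marks the cover of the 3 spans went from 4.13% to 9.98% and from 11.6% to 5.48%. The number of H3K9me3 peaks moved the other way. Over the Pcdhg span it went from 44 to 25 in HFSCs and from 20 to 44 in non-HFSCs, a difference of -43.0 peaks, and over the 3 spans from 69 to 33 and from 49 to 54, a difference of -41.0. These directions of peak number did not hold under every alternative. Without peaks under the other marks the Pcdhg peaks went from 19 to 24 in HFSCs and from 13 to 36 in non-HFSCs, and with lists of 1414 peaks each from 2 to 25 and from 12 to 16. Among peaks scoring 100 or more, the non-HFSC numbers over Pcdhg went from 18 to 11. Over the 3 spans the numbers went from 2 to 33 and from 14 to 18 with lists of equal length. The number of H3K27me3 peaks fell to 0 in LC-HFSCs and was slightly higher in non-LC-HFSCs than in non-EA-HFSCs, which gave differences of -4.00 peaks over Pcdha, -13.0 over Pcdhg and -18.0 over the 3 spans. H3K27me3 cover was lower at the later stage in both, at 12.0% and 0% of the Pcdhg span in HFSCs and 3.31% and 2.27% in non-HFSCs, and at 4.13% and 0% of the 3 spans in HFSCs and 1.69% and 1.41% in non-HFSCs. The H3K27me3 list of LC-HFSCs holds 1909 peaks in all, and with lists of that length no population had an H3K27me3 peak over the clusters.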

How the results depend on the processing

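No paired analysis was possible because each population and mark has 1 list and no test was made. No single count or cover has a sign that could turn, but the order of the stages did turn for several counts, given here, and for 0 covers. In EA-HFSCs and LC-HFSCs these were H3K9me3 counts. With lists of equal length, members went from 11 and 6 to 0 and 6, exons from 24 and 16 to 1 and 16, Pcdhg alternate exons from 15 and 14 to 1 and 14, and peaks over the 3 spans from 69 and 33 to 2 and 33, over Pcdhb from 18 and 8 to 0 and 8 and over Pcdhg from 44 and 25 to 2 and 25. Without H3K9me3 peaks under the other marks, exons were 11 and 15, Pcdhg alternate exons 6 and 13 and peaks over Pcdhg 19 and 24. In the non-HFSC populations, H3K9me3 peaks over the 3 spans went from 49 and 54 to 42 and 41 with a score of at least 50 and to 27 and 11 with at least 100, those over Pcdhg from 20 and 44 to 18 and 11, and Pcdhg alternate exons with H3K9me3 under no other mark from 16 and 15 to 7 and 11. Exons with H3K27me3 went from 4 and 3 to 5 and 6 in the 3000 bp window, and those of the Pcdhg alternate set from 3 and 2 to 4 and 5. Values are in the order of the report (EA-HFSCs, then LC-HFSCs, then non-EA-HFSCs and last non-LC-HFSCs), and the cause of a change was not tested unless stated. Counts of the 25 genes stayed the same with the middle of the peak as criterion, with protein-coding members only and with the nearest start only (22 of 22 results each). With lists of equal length, which by construction drop low-scoring peaks, the members counted were 0, 0, 0 and 0 for H3K4me3, 0 in EA-HFSCs for H3K27me3 and 0, 3 and 1 in populations other than LC-HFSCs for H3K9me3. Members with H3K9me3 at both stages were then 0 for HFSCs and 1 for non-HFSCs, and 0 in EA-HFSCs had H3K4me3 with H3K27me3. Pcdhg alternate exons with H3K27me3 were 0, and with H3K4me3 2, 3 and 1 and with H3K9me3 1 and 9 in the populations that moved. Over the 3 spans, H3K4me3 had 6, 6 and 4 peaks and a cover of 2.18%, 1.74% and 1.32% outside LC-HFSCs, H3K27me3 had 0 peaks and 0% cover, and H3K9me3 had 2, 14 and 18 peaks and a cover of 0.441%, 12.5% and 3.18% outside LC-HFSCs.

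With a score of at least 100, members with H3K4me3 were 1, 0, 0 and 0, with H3K27me3 0 and with H3K9me3 1, 0, 6 and 0, none had H3K9me3 at both stages and 0 had H3K4me3 with H3K27me3. Pcdhg alternate exons were 5, 0 and 3 for H3K4me3 (EA-HFSCs, LC-HFSCs, non-LC-HFSCs), 3, 0 and 0 for H3K27me3 (EA-HFSCs and the non-HFSC populations) and 9, 5 and 7 for H3K9me3 outside non-EA-HFSCs. The 3 spans then held 10, 2 and 6 H3K4me3 peaks, 3, 1 and 2 H3K27me3 peaks covering 1.33%, 0.876% and 0.847%, and 14, 6, 27 and 11 H3K9me3 peaks, with a cover of 2.43%, 3.54% and 2.08% outside non-EA-HFSCs. With a score of at least 50, H3K9me3 marked 3 members in non-LC-HFSCs, 2 at both HFSC stages and 3 at both non-HFSC stages, and H3K27me3 marked 1 Pcdhg alternate exon in non-LC-HFSCs. With a window of 1000 bp, members were 1 for H3K27me3 in EA-HFSCs and 3, 2, 7 and 2 for H3K9me3, with 0 and 2 shared between stages. With any transcript start, H3K4me3 marked 2, 4 and 2 members in populations other than EA-HFSCs, H3K27me3 marked 2 in each non-HFSC population, 2 were shared between stages for H3K4me3 in both comparisons and for H3K27me3 in non-HFSCs, and 2 members had both marks outside LC-HFSCs, since the joined models then take in the starts of later exons. Merging peaks less than 1 kb apart left 45, 25 and 30 H3K9me3 peaks outside LC-HFSCs. The exon window of 3000 bp gave 5 Pcdhg alternate exons with H3K27me3 in non-LC-HFSCs. Among alternatives chosen after the data had been seen, keeping H3K9me3 peaks under no other mark left 6 and 7 Pcdhg alternate exons in EA-HFSCs and non-EA-HFSCs, a cover of the 3 spans of 4.13% and 11.6% there, and 41 peaks in EA-HFSCs. The Pcdhg span from its first exon changed no cover or peak number of the 3 spans by more than 1.5 times.

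The lists do not give their reads and differ in length, the part of depth in the counts was not tested, and the absence of a peak is not the absence of a mark.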
